A study of Rattus norvegicus with 144 samples.

Results

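HIV-1 transgenic (HIV-1Tg) rats and rats of their background strain, F344, were compared in the dorsal hippocampus (HIP) with nicotine and saline rats of each strain pooled. The comparison took in every HIP sample of the series, which was 48 of 144 samples, and these fell into 4 groups of 12 adult male rats: F344_Sal, F344_Nic, HIV_Sal, and HIV_Nic. Subcutaneous injections, 2 a day over 17 days, carried either saline or nicotine at 0.25 mg/ml in a volume of 1 ml/kg. The rats were not naive, since behavior had been tested in them before. In HIV-1Tg rats the transgene is a provirus that lacks gag and pol. Its own viral promoter drives it, and the rats are not infectious although their tissues are exposed to viral proteins. Only 1 transgenic line was compared with 1 control strain, and an effect of the transgene cannot be told apart from any other genetic difference between these colonies.

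The hippocampus serves learning and memory, which are among the functions impaired in HIV-associated neurocognitive disorder. The viral proteins of this model can act on neurons, microglia, and astrocytes, and a punch of tissue holds all of these cells. In such bulk RNA, fewer cells of a type and less RNA per cell cannot be told apart. Nicotine activates the ion channels that acetylcholine opens on neurons. Averaging the strain difference over both drug groups asks which transcripts differ between the strains on average over saline and nicotine rats. Such an average can also differ when the strains differ mainly in saline rats or mainly in nicotine rats.

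Transcripts are named here by Ensembl identifiers, because the tables hold no gene symbols and the reference used here pairs no rat Ensembl transcript with one. The identifiers are given for the pair with the smallest p in each direction. The transcripts lower in HIV-1Tg rats are called L1 to L8 and those higher H1 to H3, in order of increasing p, with their lengths. Sequences, genome positions, genes known only by symbol, and lists of cell type markers were not analysed here, and the tissue label was therefore not checked against markers. Whether any of these transcripts shares reads with a near-identical gene was not tested.

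Of 39106 transcripts that matched the annotation exactly, 15029 were tested, and 11 of them differed between the strains at an adjusted p under 0.05, which was 0.0732% of those tested. In HIV-1Tg rats 3 were higher (0.02%) and 8 were lower (0.0532%). With outlying values beyond 1.5 interquartile ranges first removed within each group, a step of the kind the study used, limma called 76 (39 higher, 37 lower) and an ANOVA 71 (38 higher, 33 lower). Both sets held 10 of the 11, and the other was not tested there. Other settings gave as few as 4 calls, as described below. The test was limma on log2(FPKM + 0.1), where FPKM is the number of sequenced fragments scaled to transcript length and library size, so that levels can be compared between transcripts, and differences below are HIV-1Tg minus F344 on that scale, which understates changes of transcripts with a low FPKM. At an unadjusted p under 0.05 there were 725 transcripts, or 4.82% of those tested, and 554 of them (3.69%) also differed by more than 1.2-fold, 299 higher and 255 lower. The median difference over all tested transcripts was 0.02. The median standard error (SE) was 0.23.

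**Figure D1:**
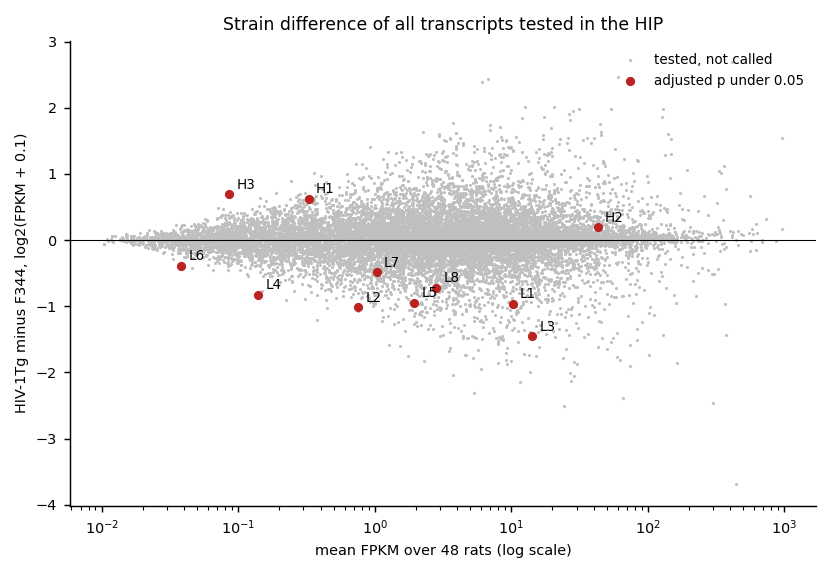
Strain difference of each of the 15029 tested transcripts (vertical axis, HIV-1Tg minus F344 in log2(FPKM + 0.1)) against its mean FPKM over the 48 rats (horizontal log axis). The 11 called transcripts are marked and span mean values from 0.0380 to 42.9 FPKM, and many transcripts that were not called have larger differences.

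Read totals of the libraries were not analysed here, and the ratio of base coverage to FPKM served as relative depth. It ranged from 1.64 to 2.49, and the medians of the 4 groups lay between 1.98 and 2.13. The lowest ratios were those of F344_Sal rats 8 to 12 (1.64 to 1.82), and every other library lay at 1.84 or more. The median correlation of a library with the other 47 was lowest in HIV_Nic rat 4 (0.744), F344_Sal rat 10 (0.759), and HIV_Sal rat 6 (0.761) and reached 0.793 in the others. Without the 2 lowest, 9 transcripts were called, all of them among the 11.

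The smallest p belonged to L1 (ENSRNOT00000048926, 780 bases). Its FPKM ranged from 9.96 to 18.4 with a median of 12.8 in F344_Sal rats and from 11.6 to 16.3 with a median of 12.8 in F344_Nic rats. It ranged from 4.30 to 8.05 with a median of 6.60 in HIV_Sal rats and from 5.71 to 10.8 with a median of 7.06 in HIV_Nic rats. In 23 of 24 HIV-1Tg rats the value lay below that of every F344 rat. The exception was HIV_Nic rat 4 (10.8), the library with the lowest median correlation. The medians of saline and nicotine rats of a strain lay close together. The strain difference was -0.96 ± 0.07 (SE, n = 24 per strain), a 1.94-fold lower level in HIV-1Tg rats, with an adjusted p of 2.88e-13.

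L2 (ENSRNOT00000025575, 703 bases) was less abundant than L1. Its FPKM had a median of 1.08 in F344_Sal rats (0.461 to 1.33), 1.13 in F344_Nic rats (0.808 to 1.56), 0.512 in HIV_Sal rats (0.251 to 0.775), and 0.414 in HIV_Nic rats (0.224 to 0.661). All 24 HIV-1Tg rats lay below the F344 median, and in the nicotine groups the strains did not overlap. The difference was -1.01 ± 0.12 with an adjusted p of 2.21e-07.

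L3, of 1195 bases, had the largest difference of the 11 on the log2(FPKM + 0.1) scale, which shrinks the differences of less abundant transcripts such as L4, L6, and H3 more than that of L3. Its FPKM had a median of 21.9 in F344_Sal rats (13.2 to 28.8), 18.2 in F344_Nic rats (14.9 to 22.9), 8.84 in HIV_Sal rats (1.69 to 11.8), and 7.54 in HIV_Nic rats (1.2 to 14.1). As for L1, 23 of 24 HIV-1Tg rats lay below all F344 rats, and the exception was again HIV_Nic rat 4 (14.1). HIV_Nic rats 2 and 6 and HIV_Sal rat 1 lay at 1.2 to 1.69 FPKM, below the other 21 HIV-1Tg rats, which had at least 5.91. The level was 2.73-fold lower in HIV-1Tg rats (difference -1.45 ± 0.19, adjusted p 5.87e-06).

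The other lower transcripts were found at lower levels or with more overlap. L5, a short transcript of 397 bases, had a median FPKM of 2.34 in F344 rats (0.848 to 4.73) and 1.15 in HIV-1Tg rats (0.629 to 2.33). In saline rats the lowest F344 value was 1.5, and the HIV-1Tg median was 1.29. The difference of L5 was -0.95 ± 0.15 with an adjusted p of 0.000535. L4, of 820 bases, had a median of 0.211 in F344 rats (0.0396 to 0.386) and 0.0714 in HIV-1Tg rats (0 to 0.189), with a difference of -0.83 ± 0.13 and an adjusted p of 0.000189. In both transcripts all 24 HIV-1Tg rats lay below the F344 median although the ranges overlapped. L8, the longest at 4095 bases, had a median of 3.62 in F344 rats (1.12 to 5.58) and 2.16 in HIV-1Tg rats (0.599 to 3.73), with a difference of -0.72 ± 0.16. Its adjusted p was 0.0421, the closest to the threshold of the 11, and it was no longer called in 30 of the 48 fits that left out 1 library, with an adjusted p of up to 0.0867 (without F344_Nic rat 2). The next transcript in order of p, of 1594 bases, had a difference of -0.91 and an adjusted p of 0.0574.

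L6, of 1317 bases, had a median FPKM of 0.0642 in F344 rats (0 to 0.0985) and 0.0160 in HIV-1Tg rats (0 to 0.0880), with a difference of -0.38 ± 0.08 and an adjusted p of 0.0165. From coverage and length, with 100 sequenced bases per read pair, these medians stand for an estimated 1.2 and 0.299 fragments per library. L4 rested on an estimated 1.93 and 0.712 fragments in F344 and HIV-1Tg rats. L1 in contrast rested on 183 and 94.3 fragments. With a mean FPKM of at least 1 required, L2, L4, L6, H1, and H3 were not tested.

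L7, of 1339 bases, differed mainly in saline rats. Its FPKM had a median of 1.49 in F344_Sal rats (0.732 to 2.10) and 0.790 in HIV_Sal rats (0.616 to 1.02), compared with 0.958 in F344_Nic rats (0.623 to 1.40) and 0.819 in HIV_Nic rats (0.703 to 1.00). The F344_Sal group was the high one, whereas the medians of the other 3 groups lay between 0.790 and 0.958. The pooled difference was -0.48 ± 0.10 with an adjusted p of 0.0226. In a model without the interaction of strain and drug the adjusted p was 0.0678.

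The higher transcripts differed widely in level. H2 (ENSRNOT00000027860, 2145 bases) was the most abundant of the 11 and changed least, with a median FPKM of 40.6 in F344 rats (33.6 to 45.8) and 44.9 in HIV-1Tg rats (36.4 to 54.1). Its difference was 0.20 ± 0.04, or 1.15-fold, with an adjusted p of 0.0165. Under median scaling of the libraries, which moved the median of all tested transcripts from 0.02 to 0.01, its difference was 0.19 and its adjusted p 0.209. H1 (ENSRNOT00000055955, 1764 bases) had a median of 0.198 in F344 rats (0.0727 to 0.493) and 0.430 in HIV-1Tg rats (0.204 to 0.815), a difference of 0.63 ± 0.12 with an adjusted p of 0.0165. In 23 of 24 F344 rats H1 lay below the HIV-1Tg median, and its medians in saline and nicotine rats were 0.262 and 0.178 in F344 and 0.438 and 0.389 in HIV-1Tg rats. H3, of 2373 bases, had a median of 0.0294 in F344 rats (0 to 0.118) and 0.122 in HIV-1Tg rats (0 to 0.354), a difference of 0.70 ± 0.14 with an adjusted p of 0.0249. It was listed at 0 in 6 F344 and 2 HIV-1Tg rats and rested on an estimated 1.34 and 5.63 fragments. Without F344_Sal rat 10, HIV_Nic rat 10, or HIV_Sal rat 3 the adjusted p of H3 was 0.0512, 0.0520, and 0.0506.

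**Figure D2:**
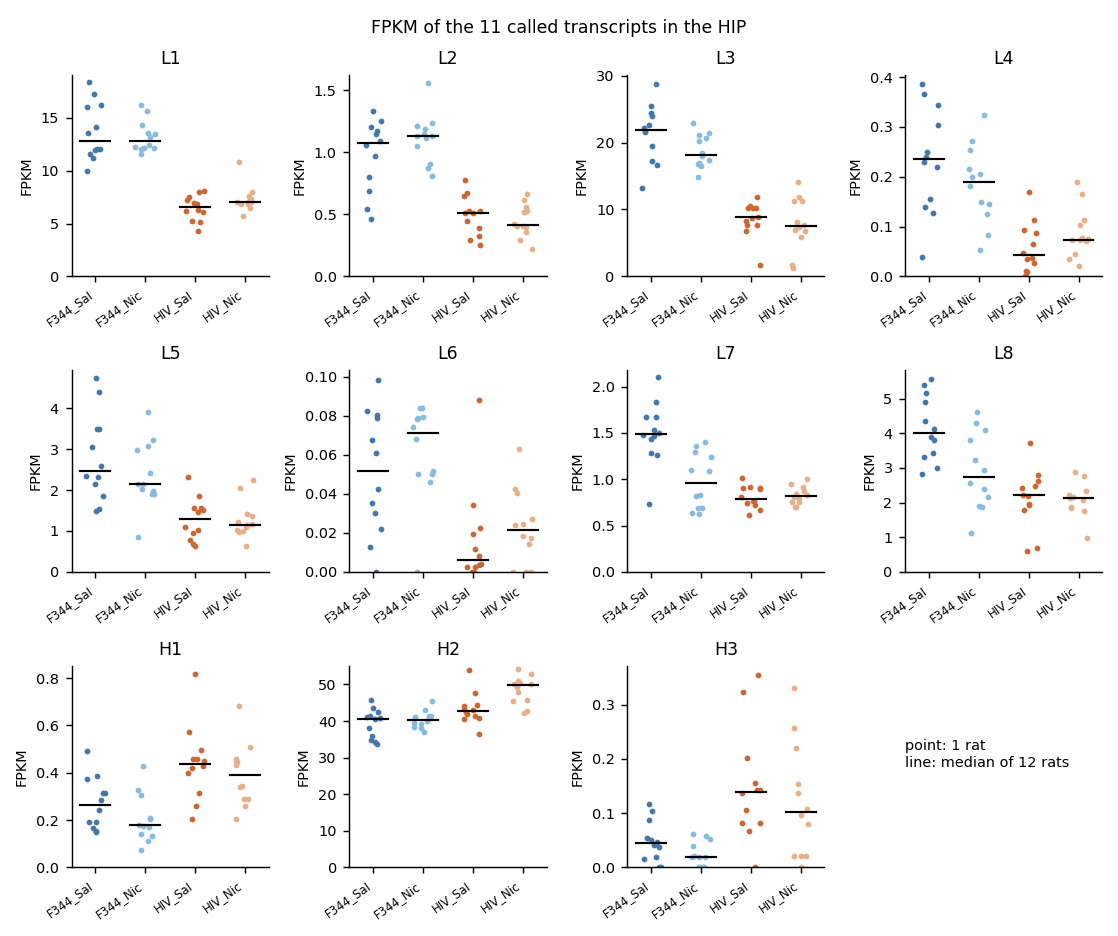
FPKM of the 11 called transcripts (1 panel each, linear axes from 0) in every rat of the 4 HIP groups, with the median of 12 rats as a line. L1 and L3 each leave 1 HIV-1Tg rat within the F344 range, which is HIV_Nic rat 4 for both. L7 is high mainly in F344_Sal rats.

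The saline and nicotine groups share no rats, and the strain difference was therefore tested within each. Within saline rats 8 transcripts were called (0.0532% of those tested), and within nicotine rats 4 were called (0.0266%). With 1 library left out these counts ranged from 5 to 8 (5 without F344_Sal rat 3 or HIV_Sal rat 3, 4, 5, 7, or 10) and from 3 to 7 (7 without HIV_Nic rat 9), and after outlier removal limma called 55 and 98. The 3 transcripts called in both drug groups with the same direction were L1, L2, and L3. After outlier removal limma called 8 in both and an ANOVA 7. L1 fell by 1.07 in saline and by 0.85 in nicotine rats (adjusted p 1.19e-09 and 1.19e-06). L2 fell by 0.86 and 1.17 (0.0143 and 5.34e-05), and L3 fell by 1.40 and 1.5 (0.0143 and 0.00643). These tests took the spread from all 48 libraries. With only the 24 libraries of a drug group in the fit, L1 alone was called in both (adjusted p 5.95e-05 and 1.12e-05), whereas L2 was not called in saline rats (adjusted p 0.298) and L3 was not called in nicotine rats (0.155). L1 and L3 did not overlap between the strains in either drug group and L2 did not overlap in nicotine rats, whereas 2 (0.0133%) of all tested transcripts did not overlap in saline rats and 4 (0.0266%) in nicotine rats.

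L4, L5, L7, and L8 passed the adjusted threshold in saline rats only, at -1.06, -1.06, -0.79, and -1.04, and none of the 4 did so with only the saline libraries in the fit (adjusted p 0.0701 to 0.298). In nicotine rats L4 had a difference of -0.59 (adjusted p 0.466), L5 of -0.84 (0.274), L7 of -0.18 (0.791), and L8 of -0.40 (0.702). L6, H1, H2, and H3 passed in neither group alone. Their differences in saline and nicotine rats were -0.37 and -0.40 for L6, 0.54 and 0.71 for H1, 0.14 and 0.26 for H2, and 0.69 and 0.71 for H3. At an unadjusted p under 0.05 in each drug group, 9 of the 11 held the same direction in both, as did 29 (0.193%) of all tested transcripts, while 5.26% of all passed in saline and 7.26% in nicotine rats. L7 and L8 did not pass in nicotine rats (unadjusted p 0.217 and 0.0781). These 9 were called from the same rats, so the count describes them and is no independent test.

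**Figure D3:**
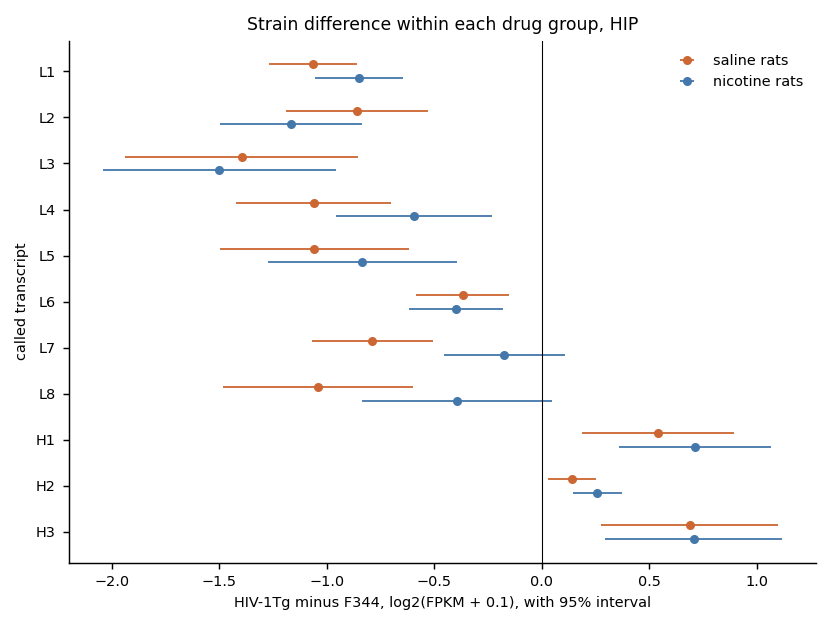
Strain difference of the 11 called transcripts within saline rats and within nicotine rats, 12 against 12 each, as HIV-1Tg minus F344 in log2(FPKM + 0.1) with 95% intervals. All 11 lie on the same side of 0 in both drug groups, and the intervals of L7 and L8 in nicotine rats reach past 0.

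Few of all tested transcripts passed in both drug groups. With an unadjusted p under 0.05 and a fold over 1.2, 722 transcripts passed in saline rats and 831 in nicotine rats. Only 28 (0.186% of those tested) passed in both with the same direction, 20 lower and 8 higher in HIV-1Tg rats, and 20 passed in both with opposite directions. Of the 28, 8 were among the 11 called transcripts, and the other 20 had adjusted p-values of 0.0574 to 0.830 for the pooled difference. Of the 722 transcripts in saline rats, 44.2% had the same direction in nicotine rats, compared with 46.6% of all tested transcripts.

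A strain difference that passed in 1 drug group is not shown to differ from the other group without a test of the interaction. limma called 0 transcripts for the interaction of strain and drug (0%), the smallest adjusted p was 0.120, and 1190 transcripts (7.92%) had an unadjusted p under 0.05. After removal of outliers, 56 were called by limma and 105 by an ANOVA of strain and drug. For L7 the difference was 0.61 closer to 0 in nicotine than in saline rats, with an unadjusted p of 0.00329 and an adjusted p of 0.475. For L8 it was 0.64 closer, with an unadjusted p of 0.0435 and an adjusted p of 0.625. The others of the 11 had an unadjusted interaction p of 0.0722 to 0.949. A transcript of 1617 bases, chosen after its values were seen, had the smallest interaction p. Its FPKM had a median of 59.4 in F344_Sal (44.7 to 73.2) and 53.3 in HIV_Sal rats (44.3 to 65.0), and after nicotine it had a median of 47.6 in F344 (38.1 to 53.7) and 65.1 in HIV-1Tg rats (51.3 to 72.5). The strain difference was -0.15 ± 0.08 in saline rats and 0.39 ± 0.08 in nicotine rats, where the adjusted p was 0.0289. With only the 24 nicotine libraries in the fit the adjusted p was 0.0914, and it was above 0.05 in 13 of the 48 fits that left out 1 library, reaching 0.0880 without HIV_Nic rat 3. The 2 contrasts point in opposite directions, and it was not called when the drugs were pooled (adjusted p 0.954).

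The 11 called transcripts were also described by their length, annotation, and level. Their median length was 1317 bases, compared with 1815 for all tested transcripts, and 4 of 11 were shorter than 1 kb compared with 23.9% of all. For 10 of the 11 the gene had a single annotated transcript, compared with 67.7% of all tested, and the median number of assembled transcripts at the locus was 1 compared with 9. Level entered the filter and the test, so the next values are a description only. The mean FPKM was under 1 for 5 of the 11 and for 28.6% of all tested. At least 1 rat was listed at 0 for 3 of the 11 (L4, L6, and H3), compared with 60.9% of all tested.

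A transcript can differ between strains through its share of the locus or through the output of the whole locus. FPKM was therefore summed over all assembled transcripts of each locus and tested in the same way. Of 23352 loci, 27 were called (0.116%), 8 higher and 19 lower in HIV-1Tg rats, and the median SE was 0.17. At an unadjusted p under 0.05 there were 5.48%. The 11 loci that hold L1 to L8 and H1 to H3 were among the 27, but for L2, L4, L5, L6, L7, and H3 the locus holds a single transcript and its total is the transcript itself. Only the loci of L1, L3, L8, H1, and H2 hold others, and these 5 were called in the direction of the transcript. H2 made up its whole total, within 0.05 percentage points, in 24 F344 and 23 HIV-1Tg rats, and H1 in 24 and 17. The direction of both these locus calls therefore largely follows from the transcript. Of the other 16 loci, 11 hold at least 1 annotated transcript and 5 hold none. These 16 are described because of their values, and they are numbered in order of p within each direction. No locus passed the adjusted threshold for the interaction (smallest adjusted p 0.179).

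The locus totals showed where the member transcripts stood in their loci. L1 took a median of 52.5% of the locus total in F344 rats (41.4% to 66.8%) and 52.1% in HIV-1Tg rats (40.7% to 61.2%), and the locus total fell by 0.95 ± 0.05, close to the change of the transcript itself. The total ranged from 22.2 to 33.1 FPKM in F344 rats and from 9.57 to 17.6 in HIV-1Tg rats, and these did not overlap. H1 made up the whole total of its locus, within 0.05 percentage points, in all 24 F344 rats and in 17 HIV-1Tg rats. In the other 7 HIV-1Tg rats the total, of 1.02 to 2.13 FPKM, held other transcripts too, and the share of H1 was as low as 28.0%. The locus of H1 was 1.01 ± 0.19 higher and the transcript 0.63 ± 0.12 higher. L3 took a median of 80.9% of its locus total in F344 rats and 77.1% in HIV-1Tg rats, and the locus total fell by 1.52 ± 0.26. That total reached 355 FPKM in F344_Sal rat 10, where the share of L3 was 5.48%, against a median of 24.5 in F344 rats, and the locus was called in neither drug group alone (adjusted p 0.0907 and 0.192), although L3 was called in both. L8 took a median of 77.5% in F344 rats (34.5% to 100%) and 100% in HIV-1Tg rats (30.2% to 100%), and its locus total fell by 0.81 ± 0.11 with an adjusted p of 3.32e-06.

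Locus totals that passed the adjusted threshold in both drug groups numbered 8 (0.0343% of those tested, with 0.0685% called in each drug group). All of them were lower in HIV-1Tg rats, and 2 of these hold L1 and L2. The tests took the spread from all 48 libraries, and no fit of 1 drug group alone is given for loci. L2, which is the whole of its locus, was not called in saline rats in such a fit (adjusted p 0.298). Lower locus 1 had totals of 12.95 to 16.1 FPKM in F344 rats with a median of 14.0, and of 6.13 to 10.3 with a median of 7.37 in HIV-1Tg rats. The strains did not overlap, and the difference was -0.93 ± 0.04 with an adjusted p of 6.36e-22, smaller than that of any single transcript. Its annotated transcript took 0% of the total, which came from assembled transcripts that differ from the annotation. Lower locus 4 had a median of 9.0 in F344 rats (7.73 to 13.8) and 4.96 in HIV-1Tg rats (3.47 to 6.59), with a difference of -0.90 ± 0.06 and no overlap. Its annotated transcript took a median of 0% of the total in both strains and did not pass the filter on low values. The share reached 62.0% in F344 and 62.2% in HIV-1Tg rats. In all, 4 of the 23352 loci (0.0171%) did not overlap between 24 F344 and 24 HIV-1Tg rats, which were lower loci 1, 2, 4, and 12, and 0 of the 15029 transcripts did so. Among the transcripts, L1 and L3 overlapped only through HIV_Nic rat 4.

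Lower locus 3, with 51 assembled transcripts, had the largest difference of the 8. Its total had a median of 42.5 FPKM in F344_Sal rats (26.8 to 63.3) and 46.6 in F344_Nic rats (42.3 to 61.1). The median was 14.7 in HIV_Sal rats (13.2 to 15.7) and 15.9 in HIV_Nic rats (14.1 to 34.5). The HIV_Sal rats lay within a narrow range, whereas F344_Sal rats spread widely. The difference was -1.52 ± 0.09 and was nearly the same in saline (-1.52) and nicotine rats (-1.51). Its annotated transcripts made up a median of 22.0% of the total in F344 rats (0% to 100%) and 0% in all HIV-1Tg rats. Lower loci 3, 8, and 17 carry consecutive numbers in the authors' assembly, and locus 8 is that of L8. Lower locus 5, without an annotated transcript, had a median of 5.32 FPKM in F344 rats (4.33 to 6.75) and 2.77 in HIV-1Tg rats (2.15 to 4.43), and it fell by 0.84 ± 0.06. Lower locus 7 had medians of 2.72 and 1.34 and fell by 1.15 ± 0.14. Lower locus 9 had medians of 1.09 and 0.481 and fell by 0.96 ± 0.14. The annotated transcript of lower locus 7 had a difference of -0.20 (adjusted p 0.984). It made up the whole total, within 0.05 percentage points, in 16 of 24 F344 and 20 of 24 HIV-1Tg rats. In the other 8 and 4 rats its share was lower, down to 0%, and only there did transcript and total differ.

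**Figure D4:**
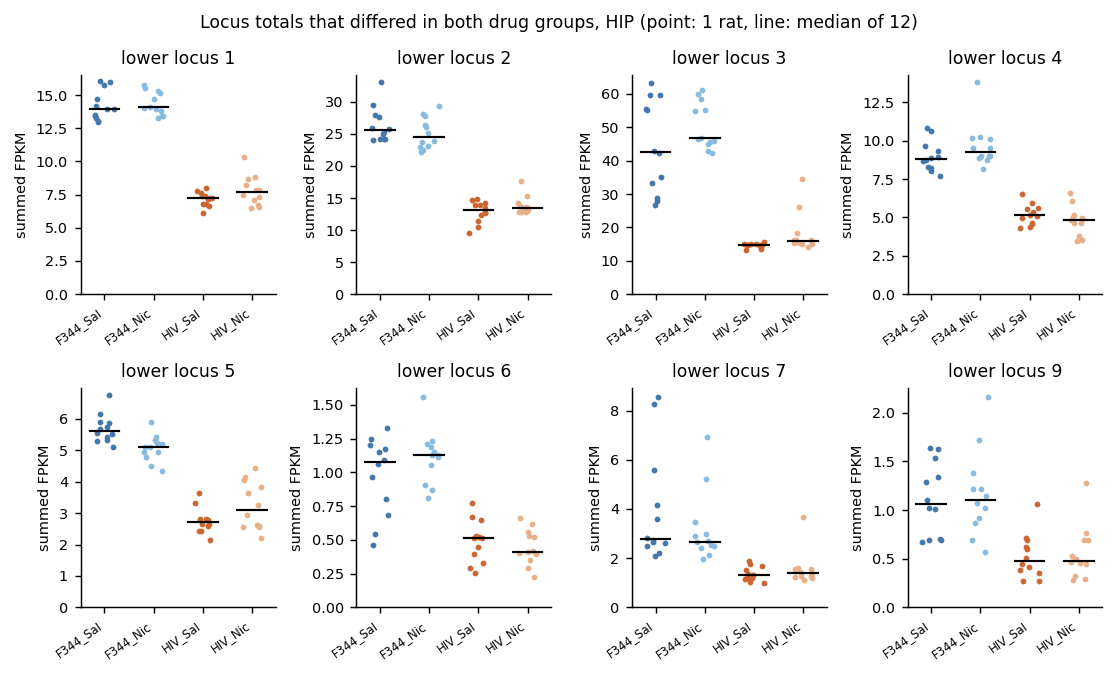
Summed FPKM (linear axes from 0) of the 8 loci whose totals passed the adjusted threshold in saline and in nicotine rats, with each HIP rat as a point and the median of 12 as a line. Lower locus 2 is that of L1 and lower locus 6 that of L2, and in lower loci 1, 2, and 4 no HIV-1Tg rat reaches the F344 range.

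Among the higher loci, locus 1 had a median of 0.857 FPKM in F344 rats (0.554 to 1.47) and 1.52 in HIV-1Tg rats (0.890 to 3.05). It rose by 0.76 ± 0.12 and was called in nicotine rats (0.90, adjusted p 0.00629), while in saline rats the difference was 0.61 (adjusted p 0.422). Higher loci 5 and 8 and lower locus 18, without annotated transcripts, spread far more widely between rats. Higher locus 5 ranged from 38.2 to 15269 FPKM in F344 rats and from 449 to 20199 in HIV-1Tg rats, and lower locus 18 from 2.56 to 38499 and from 0 to 11660. Of the 27 loci, 24 were called in each of the 48 fits that left out 1 library, and higher loci 7 and 8 and lower locus 19 were called in 23, 27, and 18 of the 48 fits.

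The same 11 transcripts were followed in the prefrontal cortex (PFC) and striatum (STR), which were sampled in the same groups of rats. In a fit of all 144 samples and 14896 transcripts, 7 of the 11 were called in the PFC, where 4.7% of all transcripts were called, and 5 were called in the STR, where 0.195% were. L1, L2, L3, L5, and L8 were lower in HIV-1Tg rats in all 3 regions, and L4 and H3 were called in the HIP and PFC. L1 fell by 1.03 in the PFC and by 1.12 in the STR, with adjusted p-values of 1.08e-23 and 8.07e-27. L3 fell by 1.43 and 1.26, L2 by 0.94 and 0.79, L5 by 0.96 and 0.80, and L8 by 0.75 and 1.14. The differences of L6, H1, and H2 kept their sign but passed the threshold in neither other region (adjusted p 0.201 to 0.956). All 7 PFC calls held without the PFC libraries of HIV_Nic rats 10 and 11.

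The strain difference in the HIP minus the mean of the PFC and STR was called for 51 transcripts (0.342%), and for 1 of the 11. That was L7, with -0.61 (95% interval -0.86 to -0.36, adjusted p 0.00596). In the PFC the median FPKM of L7 was 0.700 in F344 rats (0.558 to 1.54) and 0.655 in HIV-1Tg rats (0.484 to 1.49). In the STR it was 0.887 (0.611 to 1.37) and 1.07 (0.477 to 3.00), a difference of 0.34 in the opposite direction (adjusted p 0.151). For L6 the HIP differed from the other regions by -0.29 (-0.47 to -0.12, adjusted p 0.142). For L1 this contrast was 0.12 with an interval of -0.06 to 0.30, and for L3 it was -0.10 with an interval of -0.63 to 0.42.

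**Figure D5:**
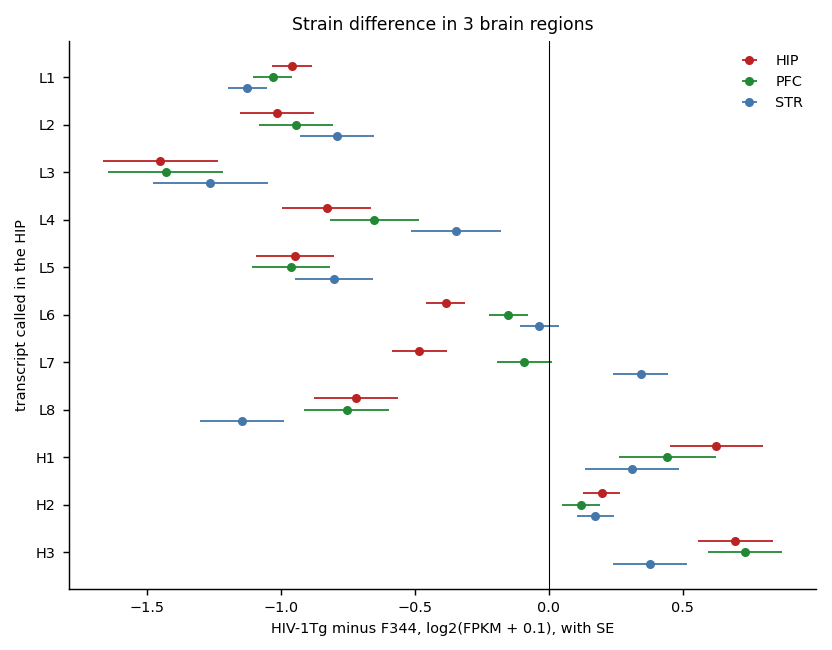
Strain difference of the 11 transcripts in the HIP, PFC, and STR, as HIV-1Tg minus F344 in log2(FPKM + 0.1) with SE, from a fit of all 144 samples. L1, L2, L3, L5, and L8 lie well below 0 in all 3 regions, and L7 is below 0 in the HIP and above it in the STR.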

How the data were processed

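RNA of the HIP was measured in 48 samples, 12 rats in each of 4 groups. The data came from the HIP tables of both strains. The authors aligned paired-end reads of 50 bases to the rat genome Rn4 with Bowtie (version 1.04 per the submitters' notes) and TopHat. Transcript levels came from Cufflinks, and the deposited tables pack the FPKM of each transcript and sample into a cell with other fields. FPKM was taken from field 4 of each cell, class code =, averaging several records of a cell before the log. The study also averaged multiple records of a transcript, but its methods list this after log transformation and outlier removal. Missing values were left out. No sample column went unused. Read totals per sample are unknown. Relative depth and fragment numbers were only estimated from coverage, so no counting error is given.

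A transcript was tested with FPKM over 0.01 in at least 12 of 24 rats of both strains. log2(FPKM + 0.1) was fitted with limma 3.58.1 in R 4.3.3 (4 group means, trended prior), with Benjamini-Hochberg adjustment over all transcripts tested. The study's methods name strain and sex for its ANOVA, whereas the labels give strain and drug. The fit was tested on simulated data of 15029 transcripts for this comparison, with normal noise of each transcript's own spread and 200 transcripts changed. It recovered 57% of changes of 1 and 83% of changes of 2 on the log2 scale, with 7 false calls. Values listed at 0 were not simulated, and with fewer changed transcripts the adjusted threshold is stricter. Recovery in the data may therefore be lower. Named transcripts are all those called, up to 12 per direction. The genes the paper names in the HIP and the planned gene and marker lists were not analysed here for lack of symbols. Members and lists were chosen with earlier results of these data known. The replicates are separate rats.

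Alternatives were other pseudocounts, filters, scalings, weights, models, outlier removal, a replicate block, locus totals, and each library left out. Added after seeing the data were a factor for rats 1 to 6 against 7 to 12, summed records, missing values as 0, the 2 libraries of lowest correlation left out, loci with annotated transcripts only, and 2 PFC libraries left out.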

Additional observations from a re-analysis of the deposited data

Results flagged for a closer look

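L7 was singled out because its strain difference in the HIP differed from that in the other 2 regions by a test of the difference itself. The HIP difference minus the mean of the PFC and STR was -0.609 on the log2 scale (adjusted p 0.00596, and 0.00662 with the replicate number, assumed to mark the same rat in the 3 regions, as a random block). Without the PFC libraries of HIV_Nic rats 10 and 11 it was -0.57 with an adjusted p of 0.00757. Within the HIP the difference was -0.79 in saline rats and -0.18 in nicotine rats, and the interaction had an adjusted p of 0.475. The test for a single outlying sample is defined for groups of at most 10 and was not run on these groups of 12.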

How the results depend on the processing

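L1 to L5 were called under every alternative in which they were tested, and none of the 11 reversed under any alternative run. The 11 calls became 7 with a pseudocount of 0.01 (5 lower), 7 without a filter (1 higher), and 4 with a mean FPKM of at least 1 (1 higher, 3 lower, all 4 with an unadjusted p under 0.05 in both drug groups). Transcripts outside the 11 were called only after outlier removal and, at most 2 at a time, with a library left out. After removal of outliers beyond 1.5 interquartile ranges, 76 were called by limma and 71 by ANOVA, 39 and 38 higher and 37 and 33 lower. Of these, 55 and 49 had an unadjusted p under 0.05 in both drug groups. Both sets held 10 of the 11, and the other was not tested there. At the adjusted threshold 55 and 61 were then called in saline rats, 98 and 113 in nicotine rats, and 8 and 7 in both. The interaction then gave 56 and 105 calls, and the cause was not tested, though removal within a group narrows its spread by construction. By the study's threshold these fits gave 1035 and 1103 of 13571 transcripts tested (602 and 634 higher, 433 and 469 lower), 113 and 110 in both drug groups with the same direction and 111 and 107 with opposite directions, and the fit without a filter gave 1017 of 28360 (503 higher, 514 lower) with 33 in opposite directions. Locus totals gave 27 calls (8 higher, 19 lower), 16 in saline and 16 in nicotine rats, 8 in both, 24 with an unadjusted p in both, and by the study's threshold 852 of 23352 loci (411 lower), 79 in both with the same and 54 with opposite directions.

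Within saline rats 4 were called without a filter, 5 with the replicate number as a block, and 2 when only those 24 samples were fitted. With only the nicotine samples 2 were called, and 1 in both drug groups. Same-numbered rats of different groups did not deviate together (72 pairs, median correlation -0.00240, range -0.0465 to 0.0454), so the number gives no pairing. The block gave 9 pooled calls, without L8 (adjusted p 0.175) and H2 (0.0558), and 6 loci in place of 8 in both drug groups. Leaving out each library in turn gave 9 to 13 calls, 2 to 5 higher (5 without HIV_Nic rat 2), 5 to 8 in saline rats (5 without F344_Sal rat 3 or HIV_Sal rat 3, 4, 5, 7, or 10), 3 to 7 in nicotine rats (7 without HIV_Nic rat 9), and 0 to 1 for the interaction. L8 was not called in 7 of its 17 alternatives and L7 in 4 (highest adjusted p 0.175 and 0.0935), H2 and H3 in 3 each (0.209 and 0.161), and L6 and H1 in 1 each (0.0551 and 0.109). Transcripts that differed in the HIP from the other regions numbered 78 without the 2 PFC libraries and 51 with a block for the replicate number, assumed to mark the same rat in each region (consensus correlation -0.0105).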

Other observations

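A transcript of 1063 bases, chosen after its values were seen, was called in saline rats and not when the drugs were pooled. Its FPKM had a median of 19.5 in F344_Sal rats (13.6 to 27.9), 14.6 in HIV_Sal rats (11.1 to 17.9), 14.4 in F344_Nic rats (11.3 to 15.2), and 12.5 in HIV_Nic rats (11.2 to 16.8). The strain difference was -0.44 ± 0.09 in saline rats (adjusted p 0.0471) and -0.07 ± 0.09 in nicotine rats (adjusted p 0.896). With only the 24 saline libraries in the fit the adjusted p in saline rats was 0.661, and it was above 0.05 in 37 of the 48 fits that left out 1 library, reaching 0.163 without F344_Sal rat 9. The difference between the drug groups had an unadjusted interaction p of 0.0082. As in L7 and L8, the F344_Sal group had the highest median.

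Of the 4 transcripts whose strains did not overlap in nicotine rats, 1 was not among the 11. This transcript of 5059 bases had 7.11 to 14.0 FPKM in F344_Nic rats and 14.1 to 16.1 in HIV_Nic rats, whereas in saline rats the ranges were 10.2 to 15.9 and 11.9 to 15.9. Its difference in nicotine rats was 0.24 ± 0.08 with an adjusted p of 0.479.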
